A study of Canis lupus familiaris with 27 samples.

Results

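Keratins are the intermediate filament proteins of epithelial cells, and their genes were taken here as all genes of the array whose symbol is KRT followed directly by a number. This gave 37 of the 15115 genes named on the platform, read by 54 probe sets that carry 1 symbol each. Where a gene had several, the one with the highest mean signal over the 27 tumors stood for it. Each sample was an invasive simple mammary carcinoma, macrodissected to more than 70% carcinoma cells. RNA with an integrity number above 8 was hybridized to an Affymetrix Canine Genome 2.0 array. The metastatic group held 13 carcinomas of dogs with tumor in a regional lymph node, 6 of grade II and 7 of grade III. The non-metastatic group held 14 carcinomas of dogs with tumor-free lymph nodes, 5 of grade II and 9 of grade III by the labels, which differ from the study's case table in the grade of 1 non-metastatic tumor. All tumors were estrogen receptor negative, and most of both groups were ERBB2 positive, by the study's staining. Metastatic tumors measured 2.42 ± 1.32 cm across (SD, n = 13), non-metastatic ones 5.21 ± 3.53 cm (SD, n = 14). The study's criteria for non-metastatic tumors included grade III and a diameter above the metastatic average. The labels nevertheless give grade II for 5 of them and a smallest diameter of 2 cm. The dogs were 12.4 ± 2.66 years old (SD, n = 13) in the metastatic group and 11.4 ± 1.65 (SD, n = 14) in the non-metastatic group.

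Keratins form filaments only as pairs of an acidic type I and a basic type II protein, so that each epithelial layer carries characteristic partners. In the mammary gland, the inner luminal cells carry the simple keratins KRT7, KRT8, KRT18 and KRT19, whereas the outer basal and myoepithelial cells carry KRT5, KRT14, KRT15 and KRT17 together with smooth muscle proteins. Pathologists use these sets to assign carcinoma cells to either layer. KRT5, KRT14, KRT15 and KRT19 have no probe set under their own symbol on this array. They are among 22 of the 59 keratin genes of the dog annotation (assembly UU_Cfam_GSD_1.0) without a named probe set. Whether probe sets without a symbol, or named for another gene, read them was not tested. The luminal side of the contrast therefore rests on KRT7, KRT8 and KRT18, and the basal side on KRT17 alone.

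Several properties of the arrays touch the keratin values below. The names of 11 of the 13 metastatic and of none of the 14 non-metastatic tumors end in T, and the labels do not say what this ending means. The remaining names end in 07 (1 metastatic, 10 non-metastatic) or 08 (1 and 4). The upper quartile of the log2 signal lay between 7.88 and 8.00 on the metastatic and between 7.53 and 7.93 on the non-metastatic arrays. Non-metastatic tumor 12 came from a dog that developed lung metastases after surgery, and it had the lowest signals of KRT7, KRT8, KRT18 and EPCAM of all tumors. EPCAM, an epithelial surface protein, nevertheless reached 11.56 on the log2 scale in that tumor and lay between 12.48 and 14.37 in the others.

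The keratin profile of the carcinomas was carried by few genes. By the probe set that stood for each gene, 12 of the 37 keratins exceeded a log2 signal of 6 in at least 1 tumor and 2, KRT8 and KRT71, in all 27, while 25 stayed below this level throughout and 21 never reached 4. Over all their probe sets, 13 exceeded 6 in at least 1 tumor, KRT72 being added at 6.63, and 20 never reached 4, since another probe set of KRT89 reached 4.39. Only 8 keratins had a mean signal above the median of all probe sets (3.77). Of the 16 hair and root sheath keratins, KRT71 and KRT31 were the only ones with a mean above that median. The 4 measured keratins with few studies (KRT42, KRT88, KRT89 and KRT124) did not exceed 3.17 in any tumor by these probe sets. Levels of different probe sets cannot be ranked against each other, since they depend on the probes as well as on the RNA, and the colours of the map are to be read along a row.

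**Figure D1:**
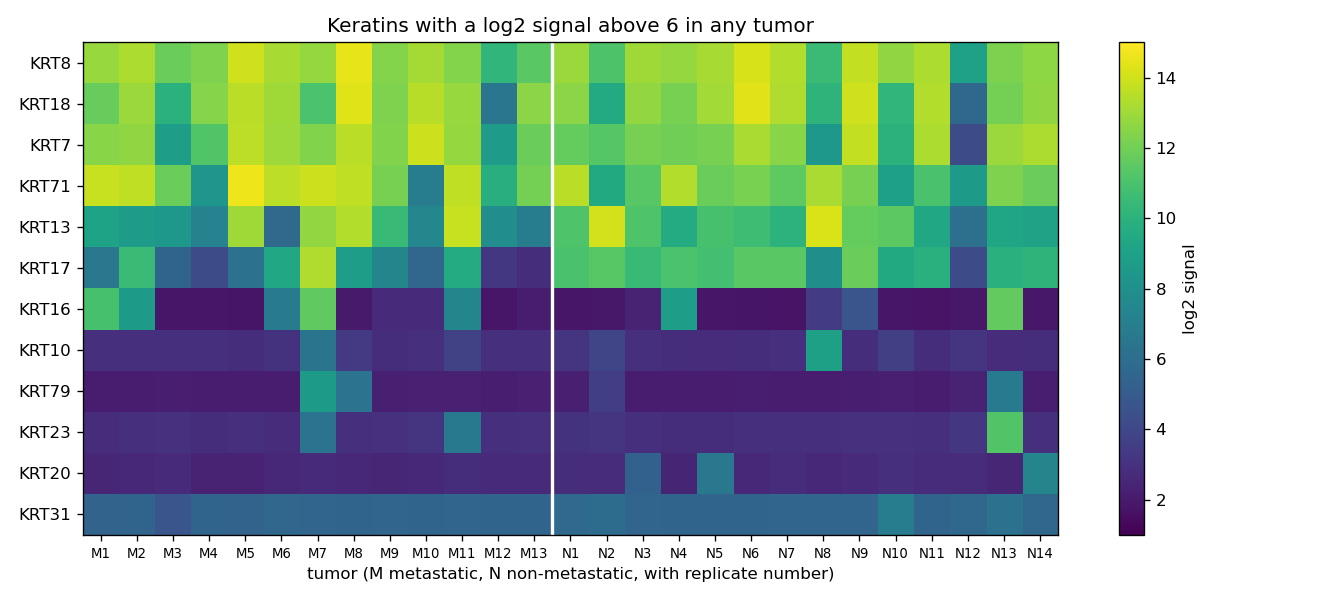
Log2 signal of the 12 keratin genes above 6 in at least 1 tumor by the probe set that stood for the gene, 1 row per gene and 1 column per tumor (M1 to M13 metastatic, N1 to N14 non-metastatic, separated by the white line). KRT17 is dim in several metastatic tumors and in N12, and KRT16, KRT10, KRT79, KRT23 and KRT20 are bright in a few tumors each.

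Comparison of metastatic with non-metastatic tumors asked whether the keratin profile differs with lymph node status. Only KRT17 passed an adjusted p of 0.05 in limma with Benjamini-Hochberg adjustment over all 42860 probe sets, and it was lower in metastatic tumors. That is 1 of 37 keratins (2.7%), against 19.2% of all genes called in the same comparison. No keratin was higher in metastatic tumors, against 11.3% of all genes called higher, and 1 was lower, against 7.9%. Among genes with a mean above the median signal, 1 of 8 keratins was called and 24.8% of all genes. The thresholds used by the study (adjusted p of 0.001 and 1.7-fold) called no keratin by limma or by the test of the study's methods, against 0.953% of all genes by limma. The median log2 difference over the 37 keratins was -0.049, beside -0.0019 over all genes, with 11 differences above and 26 below 0. An unadjusted p under 0.05 was reached by 5 keratins, KRT17 and the dim KRT12 (log2 difference -0.097), KRT24 (-0.12), KRT31 (-0.29) and KRT42 (-0.15, adjusted p = 0.0515), of which all but KRT17 and KRT31 had signals under 3.4 in every tumor. KRT12, KRT24 and KRT42 were named here after their values were seen. The share of all genes at this unadjusted level was not worked out.

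**Figure D2:**
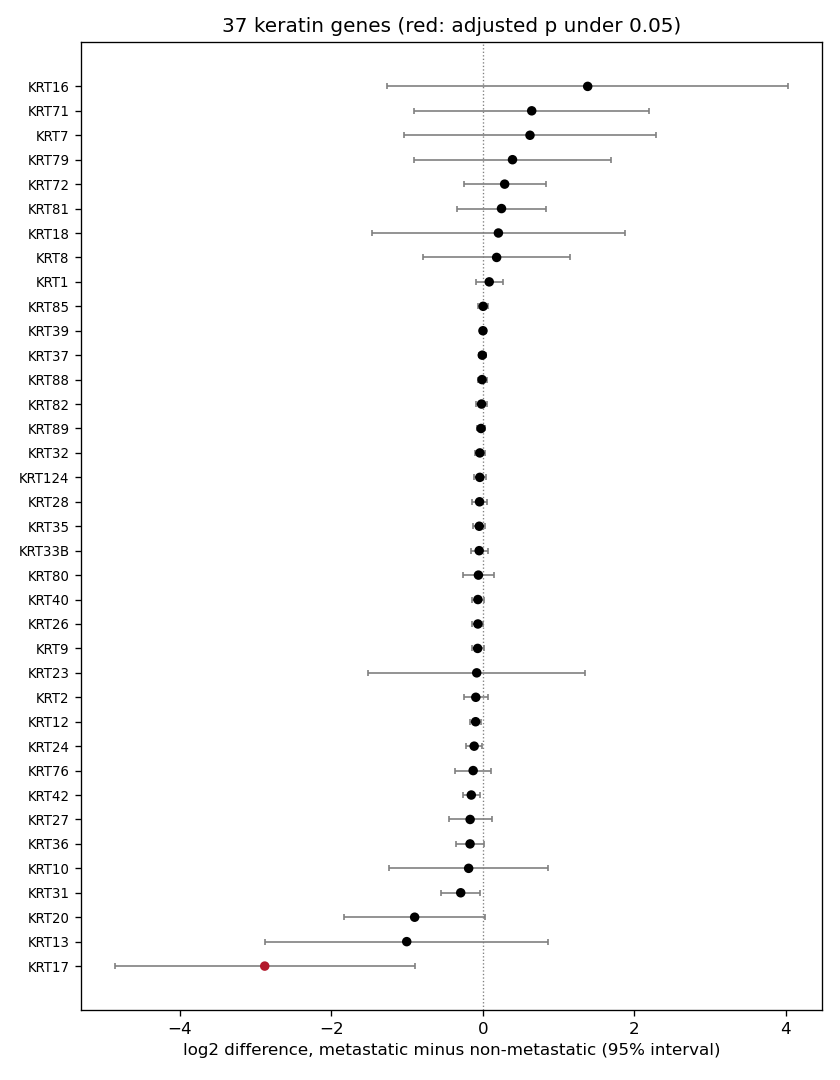
Log2 difference (metastatic minus non-metastatic) of each of the 37 keratin genes with its 95% confidence interval from limma, over 13 and 14 tumors. The interval of KRT17, in red, runs from -4.86 to -0.90, and KRT17 is the only gene past the adjusted threshold.

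KRT17 is a type I keratin of basal and myoepithelial cells that is also induced in wounded and proliferating epithelium. Its log2 signal ranged from 2.82 to 13.33 in the metastatic tumors with a median of 6.61, and from 4.17 to 11.81 in the non-metastatic tumors with a median of 10.66. The groups overlapped: 12 of 13 metastatic tumors lay below the non-metastatic median, yet metastatic tumor 7 had the highest signal of all tumors, and non-metastatic tumor 12 the third lowest. The metastatic mean was 7.18 ± 3.06 (SD, n = 13) and the non-metastatic mean 10.06 ± 1.97 (SD, n = 14), a log2 difference of -2.88 (SE 0.96) or a 7.37-fold lower signal (limma, adjusted p = 0.0354). The spread was uneven, since 13 of 14 non-metastatic tumors but 8 of 13 metastatic tumors exceeded a log2 signal of 6.

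Another KRT17 probe set, which shares probes with related transcripts by its suffix, followed the first over the tumors (Pearson r = 0.97, Spearman rho = 0.98, n = 27, permutation adjusted p = 1.67e-05 each, from the smallest p that 100000 permutations can give, over 5 pairs of probe sets). Without the 2 tumors farthest from the median, r was 0.97. This probe set gave means of 6.42 ± 2.82 (SD, n = 13) and 9.82 ± 1.62 (SD, n = 14) and a log2 difference of -3.40 (SE 0.86, limma adjusted p = 0.00841). Its suffix is also that of the probe sets that stood for KRT7, KRT8, KRT18, KRT13 and KRT71, among others. The remaining KRT17 probe set was dim, with means of 1.85 and 2.13, and did not pass (log2 difference -0.29, adjusted p = 0.352). In the dog annotation KRT17 lies between KRT42 and KRT16. Whether related transcripts add to its signal was not tested. KRT42 stayed below 3.17 in all tumors, and KRT16 is described below.

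The call of KRT17 depended on single tumors and on the terms of the model. It held at a log2 difference of -3.33 without non-metastatic tumor 12 (adjusted p = 0.0102) and at -3.39 without metastatic tumor 7 (adjusted p = 0.0106). It was lost when any of 9 other tumors was left out, with adjusted p between 0.0521 and 0.0594. These were metastatic tumors 3, 4, 5, 12 and 13 and non-metastatic tumors 1, 2, 7 and 9. It was also lost when the model blocked on the name ending (-1.17, adjusted p = 0.751) and with age and tumor size as covariates (-3.15, adjusted p = 0.118). Among the 2 metastatic and 14 non-metastatic tumors whose names end in 07 or 08, the difference was -1.50 (adjusted p = 0.643), and all tumors with the ending T are metastatic, so for these ending and lymph node status cannot be told apart.

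The luminal keratins gave no call. KRT8, the type II keratin of simple epithelia, had log2 signals from 10.20 to 14.49 (median 12.78) in metastatic and from 8.99 to 14.14 (median 12.86) in non-metastatic tumors. The mean was 12.64 ± 1.10 (SD, n = 13) against 12.46 ± 1.38 (SD, n = 14), with a log2 difference of 0.18 and a 95% interval from -0.79 to 1.15 (limma, adjusted p = 0.797). KRT18, its type I partner and its neighbour in the annotation, ranged from 6.50 to 14.31 (median 12.58) and from 5.69 to 14.37 (median 12.62). Its difference was 0.20 with an interval from -1.47 to 1.88 (adjusted p = 0.869). KRT7, a type II keratin of glandular ducts, ranged from 8.77 to 13.91 (median 12.53) and from 4.22 to 13.70 (median 12.13), with a difference of 0.62 and an interval from -1.04 to 2.28 (adjusted p = 0.585). The groups overlapped for each of the 3 genes, the lower end of KRT7 being deeper in the non-metastatic group through tumor 12, and the intervals still allow differences of more than 1.7-fold in either direction. The direction itself was not stable: KRT8 and KRT18 turned to -0.086 and -0.27 without non-metastatic tumor 12, where KRT7 was at 0.062 (0.90 without metastatic tumor 12), and all 3 were lower in metastatic tumors with array weights or with each array's upper quartile in the model.

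**Figure D3:**
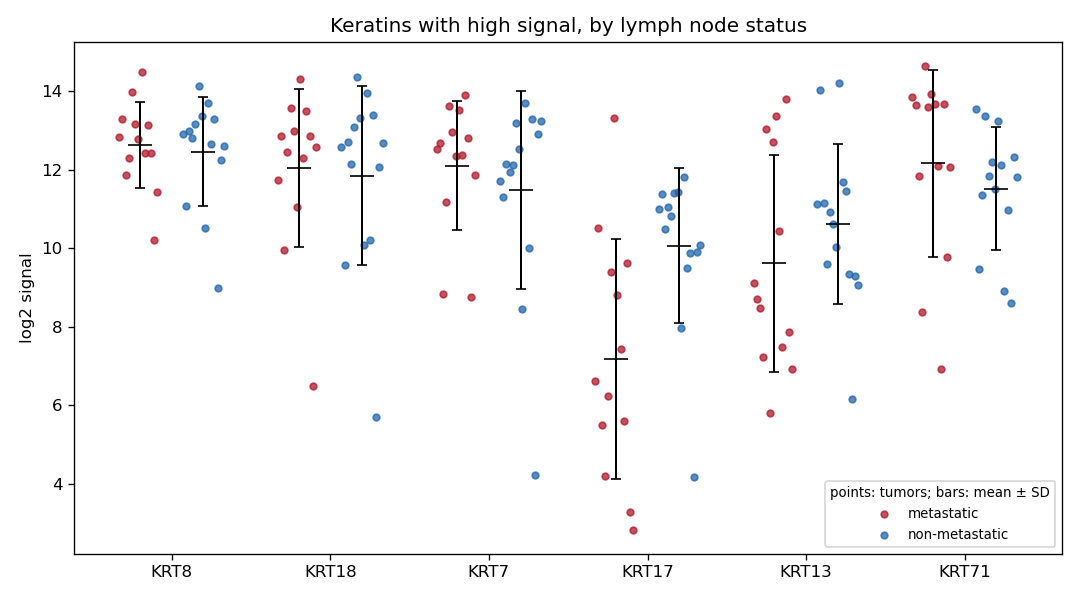
Log2 signal of 6 keratins per tumor (points), with mean and SD (bars) of the 13 metastatic and 14 non-metastatic tumors. KRT8, KRT18 and KRT7 overlap almost entirely, whereas 12 of 13 metastatic tumors lie below the non-metastatic median of KRT17.

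The luminal keratins varied together from tumor to tumor. KRT8 and KRT18 correlated with r = 0.90 and rho = 0.89 (n = 27, permutation adjusted p = 5.33e-05 for r and 8e-05 for rho, from the smallest p that 100000 permutations can give, over 16 gene pairs, 14 of which were added after values were seen). Within the metastatic tumors r was 0.83 and within the non-metastatic tumors 0.95, and without the 2 tumors farthest from the median of KRT8 it was 0.80. KRT7 correlated with KRT18 at r = 0.90 and rho = 0.83, and with KRT8 at r = 0.86 and rho = 0.74 (permutation adjusted p = 5.33e-05 for each r), and r was 0.85 and 0.73 without the 2 farthest tumors. Non-metastatic tumor 12 (KRT8 8.99, KRT18 5.69, KRT7 4.22) and metastatic tumor 12 (10.20, 6.50 and 8.77) had the lowest KRT8 and KRT18 signals, and for KRT7 non-metastatic tumor 8 (8.47) lay between them. In non-metastatic tumor 12 the mean of the 8 T cell markers was 8.56, the highest of its group, and that of the 7 macrophage markers 10.83, the highest of all tumors. Whether other cells in the section bear on its keratin signals was not tested, and fewer epithelial cells cannot be told apart from less keratin RNA per cell in bulk tissue.

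KRT17 correlated with KRT8 at r = 0.51 and rho = 0.47 (n = 27, permutation adjusted p = 0.0119 and 0.026), and r was 0.39 without the 2 tumors of most extreme KRT17. With KRT7 r was 0.46 and rho 0.27 (permutation adjusted p = 0.024 and 0.217), and with KRT18 r was 0.42 and rho 0.29 (0.0381 and 0.186). Without the same 2 tumors r was 0.44 and 0.35. The r of KRT17 with KRT7 was 0.90 within non-metastatic tumors and 0.66 there without tumor 12, and 0.45 within metastatic tumors. Metastatic tumors 5 and 10 combined KRT7 signals above 13 with KRT17 signals of 6.24 and 5.60, a combination found in no non-metastatic tumor. Both names end in T, and these tumors and levels were picked after values were seen.

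Centring each gene on its mean over the 27 tumors allowed the luminal keratins to be set against KRT17 in every tumor. The mean of the centred luminal keratins minus centred KRT17 had a median of 1.80 (from -4.69 to 5.73) in metastatic tumors and of -1.45 (from -4.15 to 0.029) in non-metastatic tumors. It was above 0 in 10 of 13 metastatic and in 1 of 14 non-metastatic tumors, so that KRT17 was low relative to the luminal keratins in most metastatic tumors. The 3 metastatic tumors below 0 were 2, 7 and 11. Non-metastatic tumor 12, low in KRT17 and in the luminal keratins, had a balance of -1.29, inside the range of its group. These are values without a test, since the genes were chosen with results of these data known, and a single gene stands for the basal layer.

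**Figure D4:**
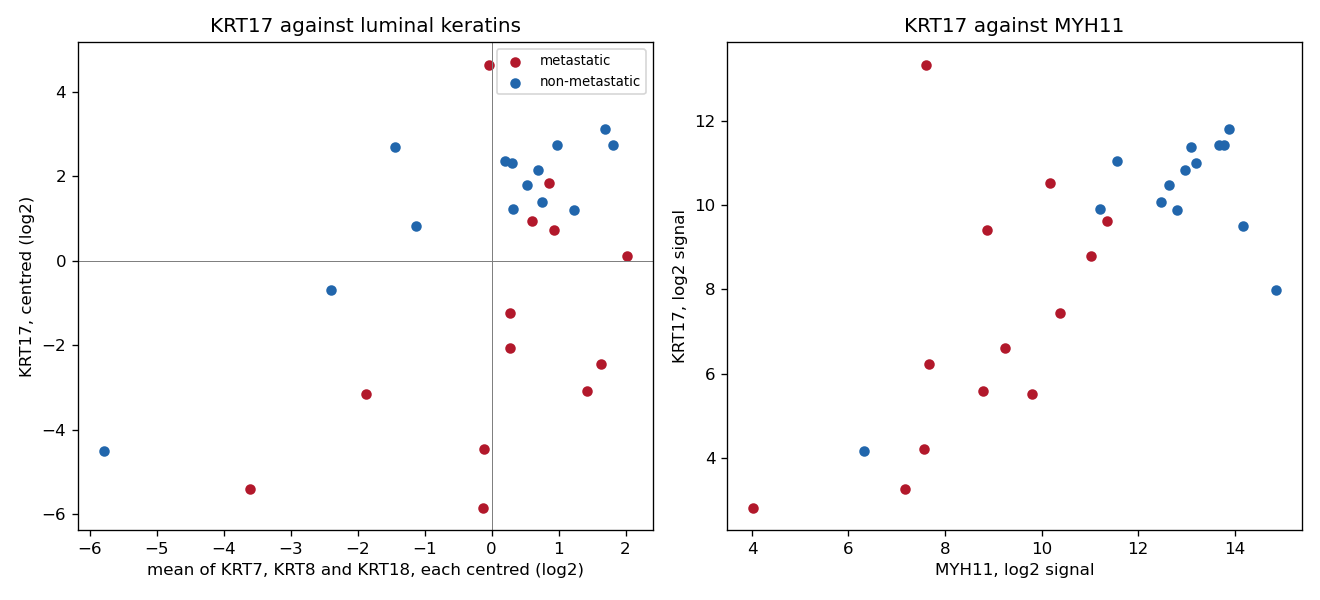
Left, KRT17 against the mean of KRT7, KRT8 and KRT18, each gene centred on its mean over the 27 tumors (log2 units), 1 point per tumor. Right, KRT17 against MYH11 (log2 signal of both), where 12 of 13 metastatic tumors and non-metastatic tumor 12 lie below all other non-metastatic tumors in MYH11.

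Myoepithelial cells also carry the contractile proteins of smooth muscle. Of 15 smooth muscle and myoepithelial contractile genes, 7 were lower and none higher in metastatic tumors (7.9% and 11.3% of all genes), with a median log2 difference of -0.66. MYH11, smooth muscle myosin heavy chain, was lower by a log2 difference of -3.88 (limma, adjusted p = 0.00147), followed by CNN1 (-2.64), MYLK (-2.47) and ACTG2 (-2.14). The mean level of the 15 genes was 8.66 ± 0.74 (SD, n = 13; from 7.31 to 9.74) in metastatic and 9.80 ± 0.63 (SD, n = 14; from 7.92 to 10.51) in non-metastatic tumors. With this mean as a covariate the KRT17 difference was -0.31 (limma, adjusted p = 0.850). Since the mean was itself lower in metastatic tumors, this fit cannot separate it from lymph node status. KRT17 correlated with MYH11 at r = 0.71 and rho = 0.66 (n = 27, permutation adjusted p = 0.00012 and 0.00088). Within metastatic tumors r was 0.52, and within non-metastatic tumors it was 0.71, or -0.20 without tumor 12. Both genes were lower in metastatic tumors and the permutations did not keep the groups apart, so these p-values also carry the group difference. Without the 2 tumors of most extreme KRT17 r was 0.60. With ACTA2, smooth muscle actin, r was 0.57 and rho 0.49 (permutation adjusted p = 0.00477 and 0.0202), and r was 0.41 without these tumors. Metastatic tumor 7 combined the highest KRT17 signal with a MYH11 signal of 7.61. The same genes serve in vessel walls, and the part of these cells in the KRT17 result was not tested beyond these values.

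TP63, which specifies basal epithelial cells, was barely detected, exceeding a log2 signal of 6 in 1 of 27 tumors, so that its values say little. It gave no call (log2 difference -0.31, limma adjusted p = 0.531) and an r of 0.18 with KRT17 (rho = 0.11, n = 27, permutation adjusted p = 0.395 and 0.576; r = 0.13 without the 2 tumors of most extreme KRT17). Of 15 basal epithelial genes other than keratins, 2 were lower in metastatic tumors, TRIM29 (-1.33), a p63-associated protein, and MME (-2.24), a surface peptidase of myoepithelial cells, and none was higher, with a median of -0.46. Of 21 luminal genes other than keratins, 4 were lower and none higher (median 0.062). Over all genes 7.9% were lower and 11.3% higher. The 4 lower luminal genes were GATA3 (-2.92), FOXA1 (-2.36), TFAP2A (-1.50) and PRLR (-1.95), 3 transcription factors and the prolactin receptor, whereas the luminal keratins gave no call. KRT8 correlated with ELF3, an epithelial transcription factor, at r = 0.72 and rho = 0.58 (permutation adjusted p = 0.000256 and 0.0056), and at r = 0.49 without the 2 farthest tumors. With EPCAM r was 0.46 and rho 0.32 (0.024 and 0.16), and r was 0.30 without these tumors.

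Keratin filaments are anchored at desmosomes and hemidesmosomes. Of 19 genes of these junctions, PLEC, a linker between filaments and hemidesmosomes, was higher in metastatic tumors (log2 difference 1.48, limma adjusted p = 0.0302) and none was lower (median -0.062). Of 16 genes of other intermediate filaments, VIM of mesenchymal cells (-0.64) and the neurofilament gene NEFL (-0.13, with means of 2.64 and 2.77) were lower and none higher (median -0.10). Over all genes 19.2% were called in either direction, beside which the counts in the junction, filament and other cell type lists are to be read. None was called among 9 fibroblast genes (median 0.77), 6 adipocyte genes (-0.0071), 8 T cell genes (0.51) or 5 B and plasma cell genes (0.54). AIF1 was higher among 7 macrophage genes (median 0.77), and among 7 endothelial genes (median 0.55) PECAM1 was higher and TEK lower.

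KRT13 and KRT71 were the other keratins with high signals. KRT13, a type I keratin of the upper layers of mucosal epithelium, ranged from 5.81 to 13.81 (median 8.72) in metastatic and from 6.16 to 14.20 (median 10.77) in non-metastatic tumors. In the annotation KRT13 lies between KRT15 and KRT36, and which transcript its probe set reads was not tested. The groups overlapped over nearly the whole range, with a log2 difference of -1.01 (SE 0.91, limma adjusted p = 0.422). KRT13 correlated with KRT17 at r = 0.53 and rho = 0.50 (n = 27, permutation adjusted p = 0.0119 and 0.0195), and at r = 0.44 without the 2 tumors of most extreme KRT17, but with KRT8 r was 0.25 and rho 0.22 (0.224 and 0.274), and -0.033 without the 2 farthest tumors. Within the non-metastatic tumors other than tumor 12, r of KRT13 was -0.19 with KRT17 and -0.64 with KRT8. Within the metastatic tumors it was 0.52 with KRT17 and 0.45 with KRT8.

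KRT71 is known as a keratin of the inner root sheath of hair. Its probe set of highest signal ranged from 6.94 to 14.65 (median 13.59) in metastatic and from 8.60 to 13.54 (median 11.82) in non-metastatic tumors, with a difference of 0.64 (SE 0.76, limma adjusted p = 0.542). Without non-metastatic tumor 12 the difference was 0.42, and without metastatic tumor 10 it was 1.08. The other probe set with the KRT71 symbol alone read between 2.05 and 2.41 in all tumors. Near background as it was, it ran against the bright one (r = -0.42, rho = -0.32, n = 27, permutation adjusted p = 0.0275 and 0.105). Without the 2 farthest tumors r was -0.56. A further pair of probe sets, annotated to KRT71 and LOC486523 together, had means of 7.49 and 6.26 over the tumors, with differences of 1.25 and 0.85 (adjusted p = 0.472 and 0.447). Which transcript the bright probe set reads was not tested. The annotated neighbours of KRT71 are KRT5 and KRT74. The correlation of the bright probe set with KRT17 was 0.38 (rho = 0.23, permutation adjusted p = 0.0578 and 0.27), and r was 0.38 without the 2 farthest tumors. With KRT8 it was 0.41 (rho = 0.36, permutation adjusted p = 0.0463 and 0.103), falling to 0.20 without the 2 farthest tumors. Within metastatic tumors r was 0.59 with KRT17 and 0.41 with KRT8. Within non-metastatic tumors other than tumor 12 it was -0.019 and 0.075. Unlike those 2 KRT71 probe sets, the pairs of probe sets of KRT7 and of KRT18 ran together (r = 1.00 each to 2 decimals, rho = 0.99, permutation adjusted p = 1.67e-05, n = 27). Without the 2 farthest tumors r was 0.99 for each.

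Keratins of epidermis and of other specialised epithelia were high in single tumors rather than in a group. KRT16, a type I keratin of wounded and hyperproliferative epidermis, ranged from 1.77 to 11.59 (median 2.66) in metastatic tumors and from 1.74 to 11.64 (median 1.89) in non-metastatic tumors. It exceeded 6 in metastatic tumors 1, 2, 6, 7 and 11 and in non-metastatic tumors 4 and 13, and lay below 4.8 in all others. The log2 difference of 1.38 (SE 1.29, limma adjusted p = 0.437) was smaller than the SD within either group, and it was 0.81 without metastatic tumor 7 and 2.02 without non-metastatic tumor 13. KRT23, found in several glandular epithelia, exceeded 6 in 3 tumors, with 6.32 in metastatic tumor 7, 6.65 in metastatic tumor 11 and 11.20 in non-metastatic tumor 13. These 3 were also the tumors in which KRTDAP, a protein of differentiating epidermis, exceeded 6, with 10.76, 7.77 and 12.25, while it stayed below 2.9 elsewhere. All 3 had KRT16 above 6.

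Metastatic tumor 7 carried several of these keratins. Besides the highest KRT17, it had KRT79 at 8.61, a keratin of the hair follicle canal and sebaceous ducts, KRT10 at 6.37, a type I keratin of the suprabasal epidermis, and KRT1, the partner of KRT10, at 3.44 against no more than 2.35 in the others. KRT79 exceeded 6 in metastatic tumor 8 and non-metastatic tumor 13 as well (6.34 and 6.72). KRT10 was highest in non-metastatic tumor 8 (8.97), where KRT1 was not raised, and the pair correlated at r = 0.46 and rho = 0.54 (n = 27, permutation adjusted p = 0.0578 and 0.0111) and at r = 0.12 without the 2 farthest tumors. KRT20, a type I keratin of intestinal epithelium, reached 6.62 in non-metastatic tumor 5 and 7.36 in non-metastatic tumor 14, and did not exceed 2.86 in any metastatic tumor (difference -0.90, limma adjusted p = 0.144). A KRT31 probe set exceeded 6 in non-metastatic tumors 10 and 13 only, but the other probe sets of this hair cortex keratin did not exceed 1.72 and 4.63, the latter in a metastatic tumor, so that the reading is uncertain. KRT79 and KRT20 were picked after their values were seen. None of the 14 measured genes of the cornified envelope and epidermis was called (median 0.080).

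**Figure D5:**
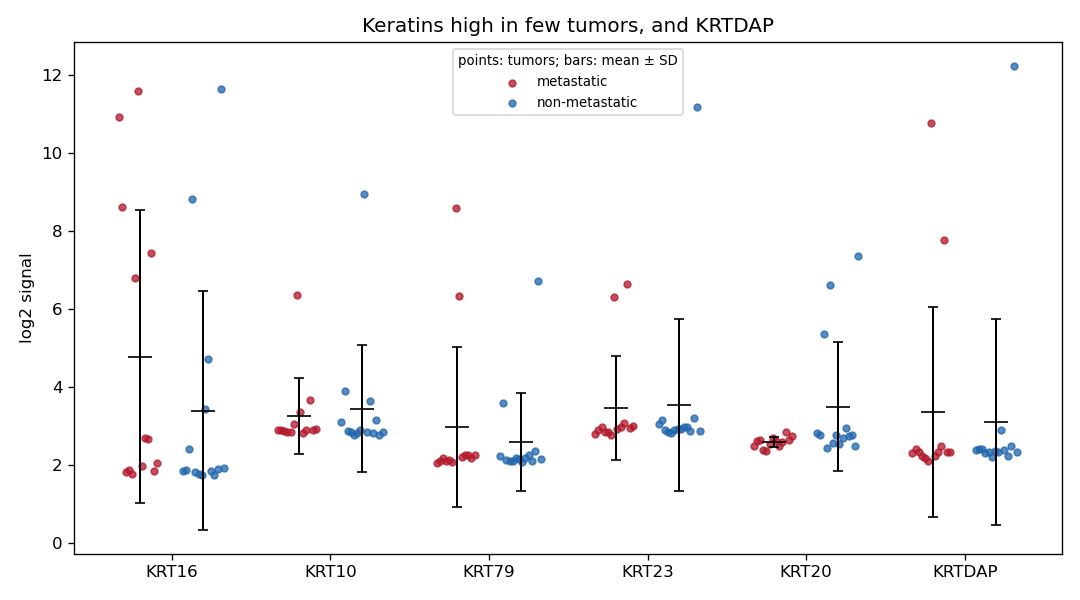
Log2 signal per tumor (points) of 5 keratins that exceed 6 in few tumors and of KRTDAP, with mean and SD (bars) of the 13 metastatic and 14 non-metastatic tumors. Most tumors lie below 4 for each gene, and the wide bars come from 2 to 7 tumors.

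Grade III and grade II tumors were compared with lymph node status as a covariate. No keratin was called between grade III and grade II, as was no other gene (0%), by limma with Benjamini-Hochberg adjustment, and 5 keratins had an unadjusted p under 0.05. The 3 luminal keratins, which varied together over the tumors, were among them. The others, KRT76 (0.29) and KRT28 (0.097), had means below the median signal and were higher in grade III. They were named here after their values were seen. The share of all genes at this unadjusted level was not worked out, so the count says nothing particular to keratins. Grade III minus grade II was -1.96 for KRT18 (95% interval from -3.51 to -0.41), -1.80 for KRT7 (from -3.37 to -0.22) and -1.03 for KRT8 (from -1.96 to -0.11), each with an adjusted p of 0.781. KRT18 averaged 13.12 ± 0.89 (SD, n = 6) in metastatic grade II and 11.14 ± 2.31 (SD, n = 7) in metastatic grade III tumors, and 13.10 ± 0.87 (SD, n = 5) and 11.15 ± 2.56 (SD, n = 9) in the non-metastatic grades. Thus its spread was wider in grade III in both groups, where both tumors with the lowest signals are found. KRT17 showed a grade difference of 0.15 with an interval from -1.92 to 2.21. In grade II its metastatic mean was 6.58 ± 2.37 (SD, n = 6) and its non-metastatic mean 10.60 ± 0.69 (SD, n = 5). In grade III these were 7.70 ± 3.65 (SD, n = 7) and 9.77 ± 2.41 (SD, n = 9). The lymph node effect on KRT17 did not pass a test of a difference between grades (interaction 1.96, SE 2.01, unadjusted p = 0.340 from limma), nor did any other keratin at an unadjusted p under 0.05 or any gene after adjustment (0%).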

How the data were processed

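The authors processed the arrays in Partek Genomic Suite 6.4 with a gcRMA workflow that corrects for background, quantile-normalizes and summarises probe sets, and the deposited values are log2 signals (from 0.29 to 16.61), 1 array per tumor. They were used as deposited. The platform has 43035 probe sets. Removal of 175 controls left 42860, to which the platform annotation gives 1 gene symbol in 29254 cases, several in 439 and none in 13167. Another 8 probe sets carry a keratin symbol among several and were kept out of the counts. Groups came from the lymph node label, and replicates were numbered in the order of deposition. Nothing pairs them. Tests used limma 3.58.1 (R 4.3.3) with Benjamini-Hochberg adjustment over all 42860 probe sets, without covariates, and were tested on simulated data. The study's ANOVA was run as an alternative, with Benjamini-Hochberg adjustment in place of the study's q-values. Correlations used 100000 two-sided permutations. An array gives no counts, so the number of tumors limits the precision. The members and lists were chosen with earlier results of these data known. Values by tumor are given for the luminal and basal keratins, and up to 6 other keratins of highest mean were named, with genes of the pairs and, per list, up to 4 genes called in the main and 2 in the other direction. Alternatives covered scaling, brightness, the probe set, array weights, covariates, name endings and single tumors. Figures were made in Python 3.11.15 (matplotlib 3.10.9).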

Additional observations from a re-analysis of the deposited data

Results flagged for a closer look

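KRT17 in non-metastatic tumor 12 (4.17 on the log2 scale) stood apart from the other 8 non-metastatic grade III tumors, of which the nearest had 7.98. The gap was 0.498 of the range of the 9 tumors, just above the critical value of Dixon's test for this number. This was 1 of 16 combinations of keratin, group and grade examined, and chance flags about 1 in 20. The tumor is that of the dog with later lung metastases, and without it the KRT17 difference was -3.33 in place of -2.88.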

How the results depend on the processing

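KRT17 was lower in metastatic tumors under every alternative run, but its call was lost with age and tumor size as covariates (-3.15), the name ending as a block (-1.17), the contractile mean as a covariate (-0.31, also the basal median), names ending in 07 or 08 only (-1.50) and the dim probe set (-0.29). Leaving out single tumors gave -3.39 to -2.52. The count of keratins called, all of them lower, was 2 with values quantile-normalized again (KRT17 and KRT31), the methods' ANOVA (KRT17 and KRT42), array weights (KRT17 and KRT20) and the contractile covariate (KRT12 and KRT40), and 0 with age and size, with the name ending and in tumors named 07 or 08. It ran from 0 to 3 when single tumors were left out.

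With array weights KRT7, KRT8 and KRT18 turned to -0.34, -0.41 and -0.70, KRT10 to 0.20 and KRT23 to 0.49. With each array's upper quartile in the model KRT7, KRT8, KRT18 and KRT71 turned to -0.99, -0.91, -1.70 and -0.67, and KRT10, KRT23 and KRT31 to 0.21, 0.65 and 0.038. Age and size turned KRT18, KRT71 and KRT79 to -0.075, -0.34 and -0.34, and grade turned KRT18 to -0.00069. KRT79 was -0.52 both with the name ending as a block and in tumors named 07 or 08. The contractile covariate turned KRT13 to 0.91 and KRT10 to 0.31. Without non-metastatic tumor 12 KRT8 was -0.086 and KRT18 -0.27. Leaving out single tumors gave -0.27 to 0.67 for KRT18, -0.086 to 0.38 for KRT8, -0.45 to 0.24 for KRT10, -0.35 to 0.51 for KRT23 and -0.078 to 0.71 for KRT79. The cause was not tested in any of these. No paired analysis was possible because replicate numbers follow the order of deposition and pair no tumors.

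The name ending T occurs in metastatic tumors only, so it cannot be told apart from lymph node status for 11 of 13 of them. Keratins near background, such as the 20 that reached 4 on no probe set, allow no statement on small differences. KRT5, KRT14, KRT15 and KRT19 had no probe set under their own symbol.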
